A study of Mus musculus with 10 samples.

Results

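Annexins are proteins that bind phospholipid membranes when calcium rises. The genes described here are Anxa1, Anxa2, Anxa3, Anxa4 and Anxa5, which were picked by name and make up 5 of the 28808 gene symbols in the count tables. The tables also hold 7 other annexin genes, which serve only as a comparison. The levels of the 5 annexins by day and by cell class were known when they were picked, so these levels and their changes between days are a description. Where a sentence counts the annexins past a test's threshold between days or between classes, the count stands beside the share of all genes past it, and nothing is read from it. The cells came from kidney cortex of 4-week-old mice, either normal (the control) or taken at 1, 2, 4, 7, 11 or 14 days after an injury whose kind the labels do not give. Single-cell RNA was counted by Drop-seq, which captures the 3′ ends of each cell's RNA on a barcoded bead. There were 10 libraries, 1 each for the control and days 1, 2 and 4, and 2 each for days 7, 11 and 14. Strain, sex, genotype and the number of animals per library are not stated, nor whether a day's 2 libraries come from separate animals, so that the spread between them may be technical.

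Each annexin has a conserved core of repeats that carries the calcium-dependent membrane contact and a variable head that binds partners. Anxa2 binds S100a10 as a tetramer that links membranes to actin and serves as a cell-surface receptor of plasminogen and its activator. Anxa1 binds S100a11, acts on formyl peptide receptors when released and was first described as an inhibitor of phospholipase A2. Anxa5 forms lattices on exposed phosphatidylserine, and it is the protein used to stain dying cells. Anxa1, Anxa2, Anxa4 and Anxa5 are among the annexins that gather at tears in the plasma membrane, and Anxa4 is a known protein of kidney epithelia. Havcr1, also called Kim-1, is a phosphatidylserine receptor and the usual marker of injured proximal tubule cells.

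In GRCm38 (mm10), with GENCODE M21 gene models, Anxa1 lies on chromosome 19 at 20373428 to 20390944 on the minus strand, Anxa2 on chromosome 9 at 69453620 to 69491795 on the plus strand and Anxa3 on chromosome 5 at 96793339 to 96845966 on the plus strand. Anxa4 lies on chromosome 6 at 86736840 to 86793584 and Anxa5 on chromosome 3 at 36448923 to 36475894, both on the minus strand. Anxa1, Anxa2 and Anxa4 each overlap a gene on the other strand (1500015L24Rik, Gm16144 and Gm44036). Anxa2, Anxa3 and Anxa5 each overlap one on the same strand (Mir3109, Gm42603 and Mir7009). Whether the authors' counting used strand is not given in the sources used here, so reads of such pairs may not have been told apart.

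The bases before the starts of Anxa2, Anxa4 and Anxa5 are shown because the annexins were higher in proximal tubule cells on day 7, described further on. Of the 5 annexins, 4 matched the RefSeq table and Anxa3 did not. They are RefSeq sequences of GRCm38.p6, each read on the gene's own strand and ending before the first exon in RefSeq and GENCODE. Capitals mark a match to AP-1 (TGANTCA), STAT (TTCNNNGAA) or TEAD (GGAATG), searched on both strands in the 250 bases before the RefSeq start.
Anxa2, chr9:69453433-69453619 (+): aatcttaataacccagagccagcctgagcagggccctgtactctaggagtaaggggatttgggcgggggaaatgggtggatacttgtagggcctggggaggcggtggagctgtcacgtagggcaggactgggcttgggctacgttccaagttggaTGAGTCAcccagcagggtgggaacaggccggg
Anxa4, chr6:86793585-86793834 (−): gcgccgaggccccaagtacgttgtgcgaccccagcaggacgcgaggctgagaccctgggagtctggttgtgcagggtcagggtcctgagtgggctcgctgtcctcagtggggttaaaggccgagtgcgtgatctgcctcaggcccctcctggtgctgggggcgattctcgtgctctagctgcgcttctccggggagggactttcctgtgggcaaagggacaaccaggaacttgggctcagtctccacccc
Anxa5, chr3:36475895-36476137 (−): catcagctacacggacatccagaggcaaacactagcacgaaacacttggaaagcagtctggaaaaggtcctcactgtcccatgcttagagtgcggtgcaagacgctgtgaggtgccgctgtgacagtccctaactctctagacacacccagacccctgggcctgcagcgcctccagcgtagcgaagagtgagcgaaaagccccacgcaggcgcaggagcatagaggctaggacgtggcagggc
The Anxa2 window held an AP-1 match, TGAGTCA, that begins 95 bases before the start, and 3 matches to the GC box GGGCGG, which begin 190, 48 and 24 bases before it. The boxes at 48 and 24 lie in the last 63 bases of the window, which GENCODE places in an exon and which are not printed. The windows of Anxa4 and Anxa5 held no match to these 4 motifs, which says only that the letters are not in these windows. They include another Anxa4 window of the RefSeq table, at 86775115 to 86775364 on chromosome 6, which is not printed. The Anxa1 window held a TEAD match 236 bases before the RefSeq start, read as CATTCC, the reverse complement of GGAATG; GENCODE places this whole window in an exon of Anxa1, and it is not printed. Of 32851 windows of this length in the RefSeq table, 6.75% held an AP-1 match, 7.02% a STAT match, 12.6% a TEAD match and 32.7% a GC box. A match is a description of the letters and not evidence of binding.

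The libraries held 7091848 to 31632205 UMIs (unique molecular identifiers, one per captured molecule), and 52797 of 64803 barcodes were kept as cells, 3568 to 6941 per library with median depths of 1244 to 2661.5 UMIs. The 2 day 11 libraries stood apart: the minimum of 500 genes removed 5362 of 10800 and 5424 of 10711 of their barcodes and 0 of those of the other libraries. Cells were sorted into 14 classes by gates on raw UMIs of marker genes: a cell had to hold at least 2 different markers of a class, and these had to make up at least 2/3 of its UMIs of all markers. Tubular cells were those of 5 tubule classes plus cells that met no gate but had at least 2 Havcr1 UMIs and at most 1 UMI of non-tubular markers, 36269 in all. The gates and this Havcr1 rule together placed 43046 cells. Levels are CPM, the counts of a gene scaled to a fixed total of all UMIs summed over a class in a library, given for classes with at least 20 cells, and their exact Poisson 95% intervals cover counting error only. A level compares 1 gene between samples, not genes with each other, since CPM of 3′ counts are not set per transcript length. Fewer molecules in each cell and fewer expressing cells cannot be told apart in a sum. Of 52735 distinct barcode sequences, 62 occurred in more than 1 library.

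In the control kidney Anxa1, Anxa2 and Anxa3 were highest in podocytes and endothelial cells, Anxa4 in intercalated cells, podocytes and principal cells, and Anxa5 was lowest in proximal tubule cells. Anxa2 stood at 1035 CPM in podocytes (95% interval 875 to 1216) and at 692 in endothelial cells (623 to 767), but at 3.6 in proximal tubule cells (2.73 to 4.66). Mural cells, phagocytes, principal cells and thick ascending limb cells held 137, 118, 62.3 and 61.4 CPM of Anxa2, and the intervals of neighbours in this order overlapped. Intercalated cells, at 2.31 CPM, overlapped proximal tubule cells for Anxa2, and distal convoluted tubule cells were lowest, at 0.465 (0.0118 to 2.59). The order for Anxa1 was alike at the top, with 475 CPM in podocytes, 313 in endothelial cells and 217 in mural cells, and then 45.3 in principal cells. Thick ascending limb and proximal tubule cells held 1.5 and 1.3 CPM of Anxa1, with overlapping intervals. Anxa3 reached 182 CPM in podocytes and 144 in endothelial cells, with mural cells at 65.1, intercalated cells at 20.8 and principal cells at 6.37, against 0.559 in proximal tubule and 0.499 in thick ascending limb cells.

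Anxa4 followed another order in the control, led by intercalated cells at 266 CPM, podocytes at 217 and principal cells at 179.8, whose intervals overlapped from each to the next. Thick ascending limb cells held 48.4 CPM, distal convoluted tubule cells 48.3 and proximal tubule cells 15.5. Anxa5 was the most even of the 5 across classes, between 145 CPM in mural cells and 349 in endothelial cells for 8 of the 9 classes present. Proximal tubule cells were the exception, at 11.5 CPM (95% interval 9.95 to 13.3). For Anxa1 and Anxa2 the interval of the podocytes lay above that of the next class, while for Anxa3 the podocytes overlapped the endothelial cells and for Anxa4 the intercalated cells overlapped the podocytes.

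After injury the proximal tubule cells, which reabsorb most of the filtered salt and solutes, held far more annexin RNA from the first day on. Anxa2 stood at 3.6 CPM in the control, 444 on day 1, 216 on day 2, 668 on day 4, 637 and 902 on day 7, then 28.7 and 32.2 on day 11, ending at 4.65 and 6.26 on day 14. The control and the day 14 libraries are the low ones, every library of days 1 to 7 lies above those of day 11, and no library of days 1 to 7 overlaps the control. Anxa3 stood at 0.559 CPM in the control, 114 on day 1, 46.3 on day 2, 184 on day 4, 163 and 208 on day 7, then 7.64 and 4.35 on day 11, ending at 0.446 and 1.07 on day 14. It rose and fell between the same libraries as Anxa2, and its day 14 levels lie on both sides of the control. Anxa5 stood at 11.5 CPM in the control, 208 on day 1, 149 on day 2, 408 on day 4, 449 and 473 on day 7, then 38.5 and 32.2 on day 11, ending at 51.9 and 49.8 on day 14. Day 7 is the high point here, and the 9 injured libraries all lie above the control, those of day 14 as well as those of day 11.

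Anxa4 moved less, at 15.5 CPM in the control, 47.5 on day 1, 41.7 on day 2, 90.1 on day 4, 79.7 and 126 on day 7, then 28.0 and 29.3 on day 11, ending at 18.6 and 21.6 on day 14. Its 2 day 7 libraries were 5.15 and 8.12 times the control, against 177 and 250.4 times for Anxa2. These are ratios of CPM; the test, with its TMM scaling between libraries, put the log2 changes lower, at 1.92 for Anxa4 and 6.89 for Anxa2. Anxa1 in proximal tubule cells stood at 1.3 CPM in the control, 8.51 on day 1, 11.1 on day 2, 8.57 on day 4, 47.6 and 34.5 on day 7, then 5.65 and 10.1 on day 11, ending at 3.12 and 3.35 on day 14. It was highest on day 7, and its levels of days 1 to 4 do not separate from the higher of the day 11 libraries. Day 2 was lower than days 1 and 4 for Anxa2, Anxa3 and Anxa5 in proximal tubule cells, and slightly lower than day 1 for Anxa4. Each of these days has 1 library and no replicate check. Proximal tubule cells with at least 2 Havcr1 UMIs and with none numbered 92 and 1719 on day 2. They numbered 477 and 275 on day 1 and 953 and 1350 on day 4, and the part of this mix was not tested.

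**Figure D1:**
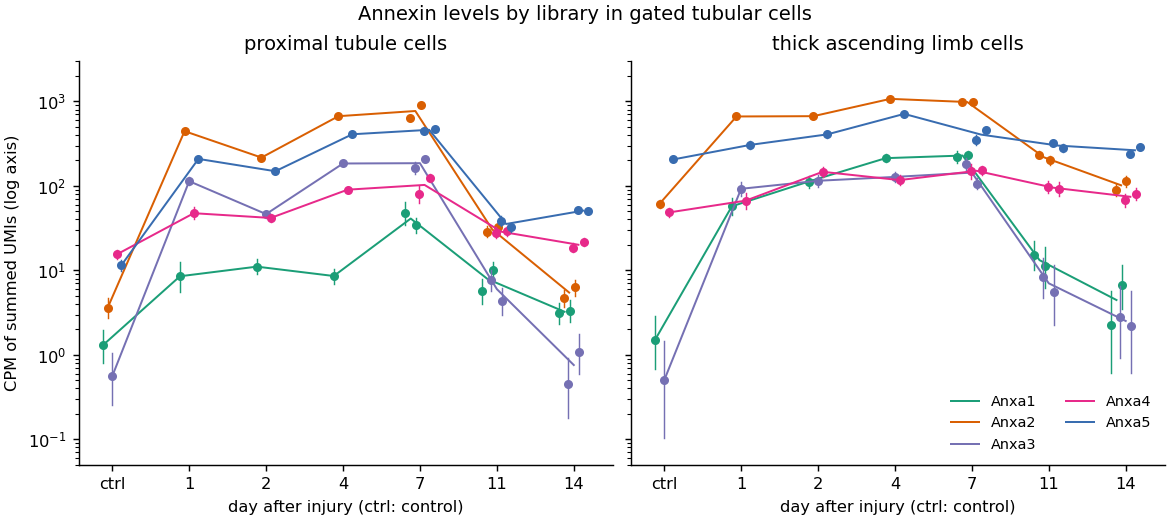
CPM of each annexin in the control and by day after injury, in proximal tubule cells (left) and thick ascending limb cells (right), on a log axis. Points are libraries with exact Poisson 95% intervals as vertical lines, and lines join the means of each day. Anxa2 in proximal tubule cells goes from 3.6 CPM in the control to 637 and 902 on day 7, while Anxa5 stays above its control level on day 14.

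Sums per library were compared by edgeR's quasi-likelihood F test across all genes, with adjusted p under 0.05 (Benjamini-Hochberg) as the threshold. In proximal tubule cells 5 of 5 annexins passed as higher on day 7 than in the control, where 17.5% of 14770 genes passed as higher and 35.6% in either direction. These are the values the annexins were picked on, so the counts are a description. The log2 changes were 7.51 (SE 0.51) for Anxa3, 6.89 (SE 0.39) for Anxa2, 4.46 (SE 0.27) for Anxa5, 4.06 (SE 0.44) for Anxa1 and 1.92 (SE 0.29) for Anxa4, and the median over all genes was 0.04. From day 7 to day 11 all 5 passed as lower, where 18.2% of genes passed as lower and 36.4% in either direction, with changes of -4.26 (SE 0.31) for Anxa3, -3.95 (SE 0.24) for Anxa2, -2.99 (SE 0.19) for Anxa5, -1.62 (SE 0.30) for Anxa1 and -1.17 (SE 0.23) for Anxa4. Of the 5, Anxa5 alone passed as higher on day 14 against the control, where 4.48% of genes passed as higher and 9.93% in either direction, by 1.99 (SE 0.24). Anxa1 changed by 1.15 (SE 0.44) in that comparison and the other 3 by 0.23 to 0.45, none past the threshold. The tests take the single control library to vary as the replicated days do, and the calls of days 11 and 14 share the libraries of day 7 and the control with the first.

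Phagocyte markers, given here for the control and days 7, 11 and 14 only, were likewise highest on day 7. Their summed level in proximal tubule cells (9 markers) was 19.2 CPM in the control, 436 and 382 on day 7 and 30.4 to 65.3 on days 11 and 14, and 8 or 9 of the 9 were above 0 in each library. In the phagocytes themselves the same markers summed to 8790.4 and 10363 CPM on day 7. Anxa2 was at 426 and 471 CPM in those phagocytes, below the 637 and 902 of the proximal tubule cells of the same libraries. Anxa1 went the other way, at 249 and 229.7 CPM in phagocytes against 47.6 and 34.5. For Anxa3 (175 and 180.1 against 163 and 208) and Anxa4 (105 and 134 against 79.7 and 126) the 2 classes overlapped, and Anxa5 was lower in phagocytes, at 356 and 398 against 449 and 473. Neutrophil markers summed to 118 CPM in the proximal tubule cells of day 7 replicate 1 and to 6.61 in replicate 2. Their part in the annexin levels was not tested. With a gate that asked for 9/10 of the marker UMIs, the day 7 mean of Anxa2 in proximal tubule cells was 479 CPM in place of 769. With that gate Anxa1 no longer passed from day 7 to day 11 (log2 change -1.33) and passed as higher on day 14 than in the control (4.43).

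The share of proximal tubule cells with at least 1 Anxa2 UMI went from 1.15% in the control (exact binomial 95% interval 0.836 to 1.55) to 46.4% and 50.2% on day 7. Thinned to 1000 UMIs per cell, it was 0.485% in the control and 36.4% and 36.0% on day 7, leaving out 175 control cells and 82 and 65 day 7 cells that were shallower. Intercalated cells, at 2.31 CPM of Anxa2 in the control, were at 129 to 187 CPM on day 7. Distal convoluted tubule cells, whose control value of 0.465 CPM was the lowest but overlapped that of intercalated cells, were used to gauge free RNA. In day 7 replicate 2 an Anxa2 UMI was found in 5.0% of 20 such cells (0.127 to 24.9), at a median depth of 1882.5 UMIs against 2428 in the proximal tubule cells. Their Anxa2 level was 11.3 CPM, from 1 UMI. On day 4, however, 34.3% of 35 distal convoluted tubule cells had an Anxa2 UMI, at 101 CPM, against 45.0% and 668 CPM in proximal tubule cells of that library, and free RNA and expression in the distal cells cannot be told apart there.

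In the thick ascending limb, the segment that takes up salt without water, all 5 annexins were likewise above the control on day 7, and the difference from the proximal tubule was not tested. Anxa1 stood at 1.5 CPM in the control, 57.3 on day 1, 113 on day 2, 213 on day 4, 223 and 234 on day 7, then 15.2 and 11.2 on day 11, ending at 2.25 and 6.66 on day 14 there. Every library of days 1 to 7 lies far above the control, at 57.3 to 234 CPM, where the proximal tubule cells of the same libraries held 8.51 to 47.6. Anxa2 stood at 61.4 CPM in the control, 663 on day 1, 668 on day 2, 1071 on day 4, 979 and 986 on day 7, then 234 and 201 on day 11, ending at 90.0 and 113 on day 14. The libraries of days 4 and 7 are the high ones, and all injured libraries lie above the control. Anxa3 stood at 0.499 CPM in the control, 92.3 on day 1, 115 on day 2, 128 on day 4, 180.5 and 107 on day 7, then 8.44 and 5.60 on day 11, ending at 2.81 and 2.22 on day 14, the control value resting on 3 UMIs.

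Anxa5 was already present in the thick ascending limb of the control and changed less, at 206 CPM in the control, 306 on day 1, 407 on day 2, 711 on day 4, 350.4 and 458 on day 7, then 321 and 279 on day 11, ending at 241 and 287 on day 14. Its high point was day 4, in 1 library. Anxa4 stood at 48.4 CPM in the control, 66.9 on day 1, 147 on day 2, 117 on day 4, 149 and 153 on day 7, then 97.4 and 92.8 on day 11, ending at 67.5 and 81.0 on day 14, with days 2 to 7 above the other libraries. No test of the thick ascending limb was part of the design, and these values are a description. Phagocyte markers in these cells summed to 34.9 CPM in the control and to 298 and 236 on day 7, and their part in the levels was not tested.

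Principal cells, the water-reabsorbing cells of the collecting duct, held 62.3 CPM in the control, 427 on day 1, 507 on day 2, 573 on day 4, 551 and 607 on day 7, then 199 and 195 on day 11, ending at 80.3 and 112 on day 14 for Anxa2. Anxa1 in principal cells stood at 45.3 CPM in the control, 159.6 on day 1, 163 on day 2, 152 on day 4, 155 and 149.6 on day 7, then 85.9 and 126 on day 11, ending at 46.9 and 70.5 on day 14. Both genes were high from day 1 to day 7 and lower by day 14. Anxa4 and Anxa5 in principal cells, by contrast, were within 88.3 to 219.9 CPM and 165 to 309.9 CPM over all libraries, with the control at 179.8 and 271; the injured libraries lie on both sides of it. Intercalated cells, the acid-base cells of the same duct, went from 2.31 CPM of Anxa2 in the control to 129 to 261 on days 1 to 7, and from 266 of Anxa4 to 197 and 319.7 on day 7.

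Among classes with at least 20 cells in both day 7 libraries, the highest Anxa2 level of day 7 was in the tubular cells that met no gate but bore Havcr1, at 1655 and 1552 CPM, followed by thick ascending limb cells at 979 and 986. Proximal tubule, endothelial, principal and phagocyte cells came next in that order, and the libraries of proximal tubule and endothelial cells overlapped. These Havcr1-bearing cells, 113 and 88 in number on day 7, also stood highest for Anxa3, at 286 and 406 CPM, and for Anxa5, at 693 and 628. Intercalated cells still led for Anxa4 on day 7, with libraries that overlapped those of principal cells, and endothelial cells for Anxa1. Podocytes, fibroblasts and mural cells numbered fewer than 20 in 1 of the 2 day 7 libraries and are left out of this order. In day 7 replicate 2 podocytes held 1704 CPM of Anxa2, above the Havcr1-bearing cells with overlapping intervals. In that library podocytes, fibroblasts and mural cells held 859, 553 and 546 CPM of Anxa1, where endothelial cells held 394.

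**Figure D2:**
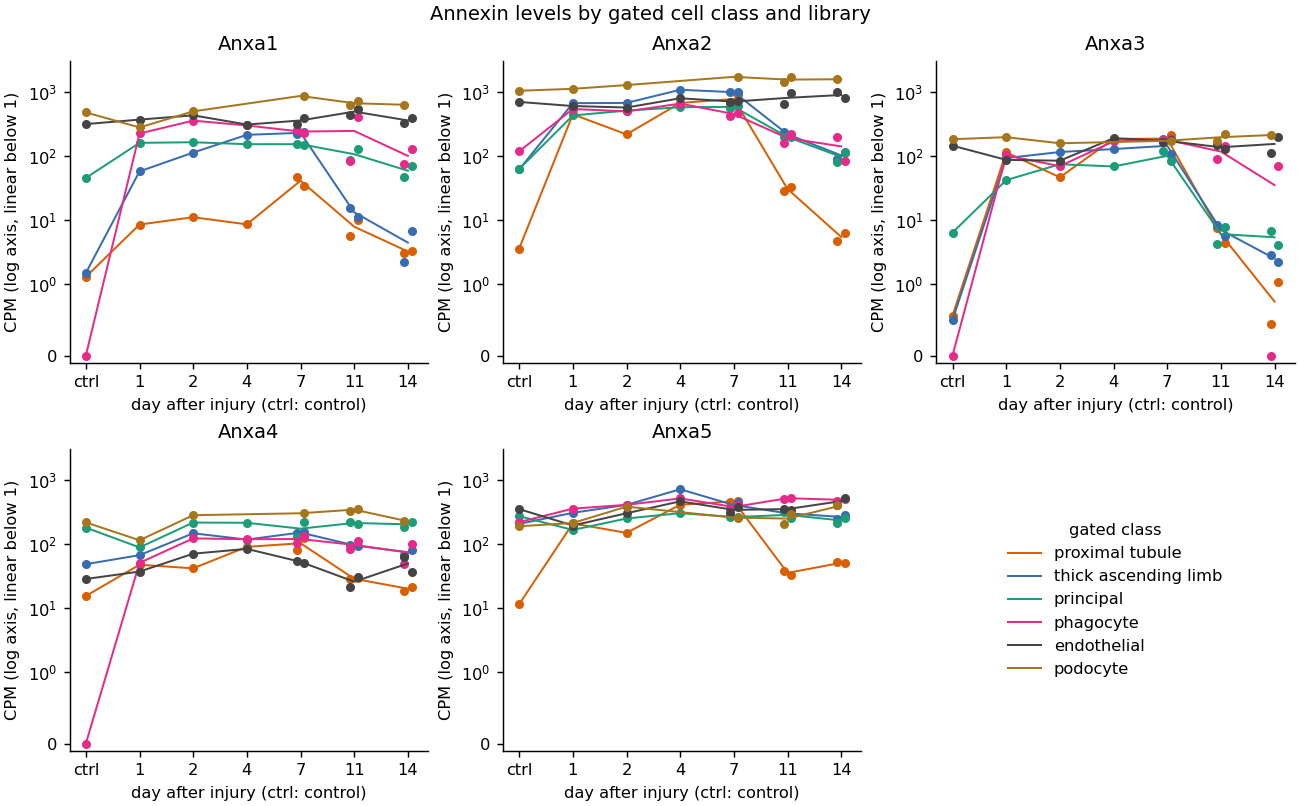
CPM of each annexin by day in 6 gated classes, on an axis that is logarithmic above 1 and linear below it. Points are libraries and lines join day means; podocytes were under 20 cells in day 4, day 7 replicate 1 and day 14 replicate 2. The endothelial line of Anxa2 stays between 567 and 973 CPM in every library, while the proximal tubule line spans 3.6 to 902.

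Over all tubular cells together, Anxa2 stood at 19.8 CPM in the control, 484 on day 1, 305 on day 2, 717 on day 4, 739.6 and 812 on day 7, then 76.5 and 60.5 on day 11, ending at 15.8 and 23.1 on day 14. By the edgeR test 5 of 5 annexins passed as higher on day 7 than in the control, where 16.1% of 15881 genes passed as higher and 34.0% in either direction. Changes were 6.19 (SE 0.36) for Anxa3, 4.51 (SE 0.33) for Anxa2, 4.31 (SE 0.32) for Anxa1, 1.39 (SE 0.24) for Anxa5 and 1.11 (SE 0.25) for Anxa4. All 5 passed as lower on day 11 than on day 7, where 20.8% of genes passed as lower and 43.1% in either direction, with changes from -0.68 for Anxa4 to -3.66 for Anxa3. The Anxa4 call was lost without day 7 replicate 2 (log2 change -0.38), day 11 replicate 1 (-0.70) or day 11 replicate 2 (-0.64). On day 14 against the control none of the 5 passed by edgeR or DESeq2, and 1 (Anxa1) had an unadjusted edgeR p under 0.05. Of all 15881 genes 8.47% passed, and 4374 had such an unadjusted p. The share of each segment among tubular cells also differed between days, so these sums mix segments in unequal parts.

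Whether the annexins marked the injured cells themselves was asked within libraries, by comparing proximal tubule cells with at least 2 Havcr1 UMIs to those with none on days 1, 2, 4 and 7. The restriction to proximal tubule cells was chosen after the comparison over all tubular cells had been seen. Anxa2 was higher in the Havcr1-positive cells of 5 of 5 libraries, with 535 against 164 CPM on day 1, 906 against 63.1 on day 2, 1153 against 159.8 on day 4, and 841 against 309.8 and 1235 against 276 on day 7. The states do not overlap over the 5 libraries. The Havcr1-negative cells themselves lay well above the 3.6 CPM of all control proximal tubule cells. Anxa3 was likewise higher in 5 of 5 libraries, with 135 against 56.0 CPM on day 1, 177 against 16.0 on day 2, 323 against 41.5 on day 4, and 205 against 89.1 and 292 against 60.3 on day 7.

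With library as a block, edgeR's quasi-likelihood test gave log2 changes of 2.32 (SE 0.26) for Anxa2 (adjusted p = 7.81e-05) and 2.31 (SE 0.26) for Anxa3 (adjusted p = 7.81e-05). Anxa5 was higher by 1.12 (SE 0.18) (adjusted p = 0.000749 by edgeR), with ratios of 1.43 to 3.92 over the 5 libraries. Anxa4 was higher by 1.04 (SE 0.14) (adjusted p = 0.000238 by edgeR), with ratios of 1.48 to 2.96, also in 5 of 5 libraries. So 4 of 5 annexins passed in proximal tubule cells, all as higher, where 15.4% of 11214 genes passed as higher and 28.7% in either direction. Anxa1 was higher in the 2 day 7 libraries, with 56.7 against 42.4 and 43.5 against 18.5 CPM, and lower in the other 3, and its change of -0.32 (SE 0.35) did not pass (adjusted p = 0.524 by edgeR). The Havcr1-negative cells held 6, 85 and 41 Anxa1 UMIs on days 1, 2 and 4, and 10 and 15 on day 7. Some of these directions thus rest on few counts, and whether the Anxa1 difference itself changed between days was not tested.

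Over all tubular cells, the comparison first planned, 4 of 5 passed where 25.1% of 12474 genes did (10.7% as higher and 14.4% as lower). Anxa3, Anxa2 and Anxa5 were higher in Havcr1-positive cells, by 1.62 (SE 0.24) (adjusted p = 0.00199), 1.12 (SE 0.23) (adjusted p = 0.00995) and 0.76 (SE 0.17) (adjusted p = 0.0121) in edgeR's test. Anxa1 was lower, with a log2 change of -1.99 (SE 0.35, adjusted p = 0.00460 by edgeR), in 5 of 5 libraries. Anxa4 changed by -0.12 (SE 0.15) and did not pass, the opposite sign to its change within proximal tubule cells. The Havcr1-negative cells of this wider comparison include thick ascending limb and principal cells, whose Anxa1 and Anxa4 levels are given above. Cells that met no gate count as tubular only with at least 2 Havcr1 UMIs, so they enter the positive state alone. On day 7 they were 113 of 320 positive cells in replicate 1 and 88 of 333 in replicate 2, and their part was not tested. Calling cells positive from 1 Havcr1 UMI ended the calls of Anxa2 (0.58, adjusted p = 0.102) and Anxa5 (0.33, adjusted p = 0.261) in the edgeR test over tubular cells. Havcr1-positive proximal tubule cells were deeper than negative ones in all 5 libraries (median 1912.5 to 7853.5 against 1217 to 1957 UMIs), and their proximal tubule markers summed to 4104 to 9148 CPM against 6960 to 16335. Phagocyte markers summed to 59.1 to 499.95 CPM in them against 56.0 to 479, and the part of these differences was not tested.

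**Figure D3:**
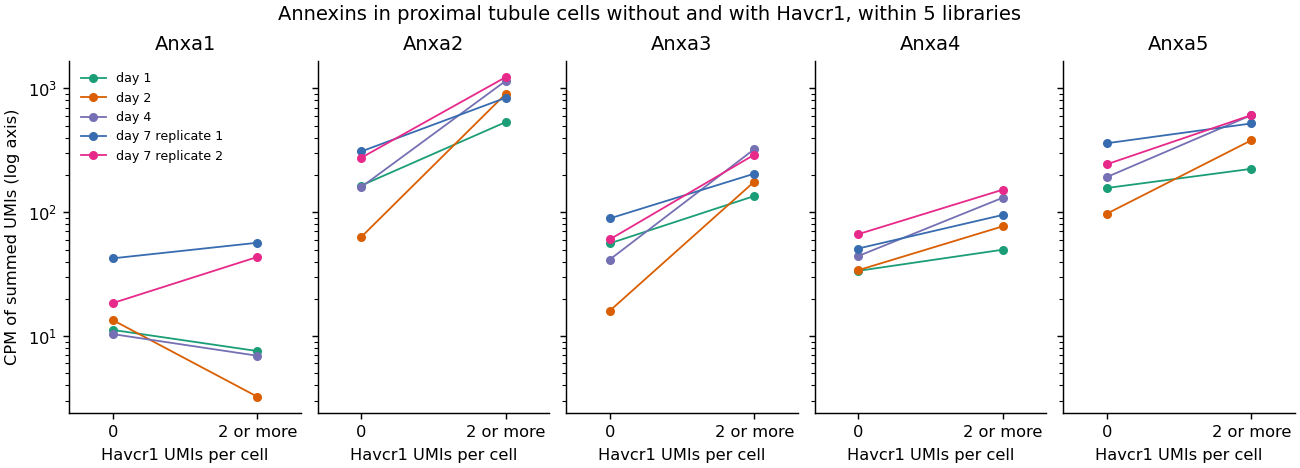
CPM of each annexin in proximal tubule cells with 0 and with 2 or more Havcr1 UMIs, on a log axis; each line joins the 2 states of 1 library. The lines of Anxa2, Anxa3, Anxa4 and Anxa5 rise in 5 of 5 libraries, while those of Anxa1 rise in the 2 day 7 libraries and fall in the other 3. Havcr1-negative cells held 6 Anxa1 UMIs on day 1 and 10 and 15 on day 7.

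The S100 proteins are small calcium-binding partners of the annexins, and 4 were followed. S100a10, the partner of Anxa2, stood at 119 CPM in the control, 559 on day 1, 329 on day 2, 633 on day 4, 549.9 and 744 on day 7, then 236 and 267 on day 11, ending at 169 and 164 on day 14 in proximal tubule cells. It was present in the control and stayed above it in every injured library, and its span is narrower than that of Anxa2. S100a11, the partner of Anxa1, stood at 19.3 CPM in the control, 357 on day 1, 229 on day 2, 384 on day 4, 491 and 684 on day 7, then 85.0 and 145 on day 11, ending at 69.9 and 76.4 on day 14. All injured libraries lie above the control. S100a6, which binds Anxa2 among others, stood at 2.05 CPM in the control, 2025 on day 1, 1145 on day 2, 1672 on day 4, 472 and 873 on day 7, then 28.6 and 25.8 on day 11, ending at 2.16 and 4.98 on day 14, so that its high point was day 1 and not day 7.

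In edgeR's test of proximal tubule cells, 4 of 4 partners rose from the control to day 7, by 7.51 (SE 0.61) for S100a6 (adjusted p = 6.77e-06), 4.08 (SE 0.39) for S100a11 (adjusted p = 1.75e-05), 2.44 (SE 0.52) for S100a4 (adjusted p = 0.00382) and 1.59 (SE 0.26) for S100a10 (adjusted p = 0.000694), where 17.5% of all genes passed as higher. S100a4 stood at 0.869 CPM in the control and 12.2 and 6.97 on day 7 in proximal tubule cells, against 175 and 335 in the phagocytes of day 7. The phagocyte markers given above were also higher on day 7 than in the control, and their part in the partner levels was not tested. Those markers are not given for the earlier days after injury, when S100a6 was highest. From day 7 to day 11 S100a6, S100a11 and S100a10 fell, with log2 changes of -3.93 (SE 0.36) (adjusted p = 1.45e-05), -1.65 (SE 0.26) (adjusted p = 0.000459) and -0.66 (SE 0.20) (adjusted p = 0.0224 by edgeR), and S100a4 changed by -0.39 (SE 0.40) (adjusted p = 0.468), where 18.2% of all genes passed as lower. S100a11 was the partner still higher on day 14, by 1.77 (SE 0.34) (adjusted p = 0.0110 by edgeR). Within libraries, S100a6, S100a4, S100a11 and S100a10 were each higher in Havcr1-positive proximal tubule cells of 5 of 5 libraries, by 2.93 (SE 0.23), 2.10 (SE 0.35), 1.31 (SE 0.15) and 1.29 (SE 0.19) (edgeR adjusted p of 1.10e-05, 0.000853, 7.73e-05 and 0.000427), where 15.4% of all genes passed as higher. These day contrasts share the libraries of the annexin contrasts.

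**Figure D4:**
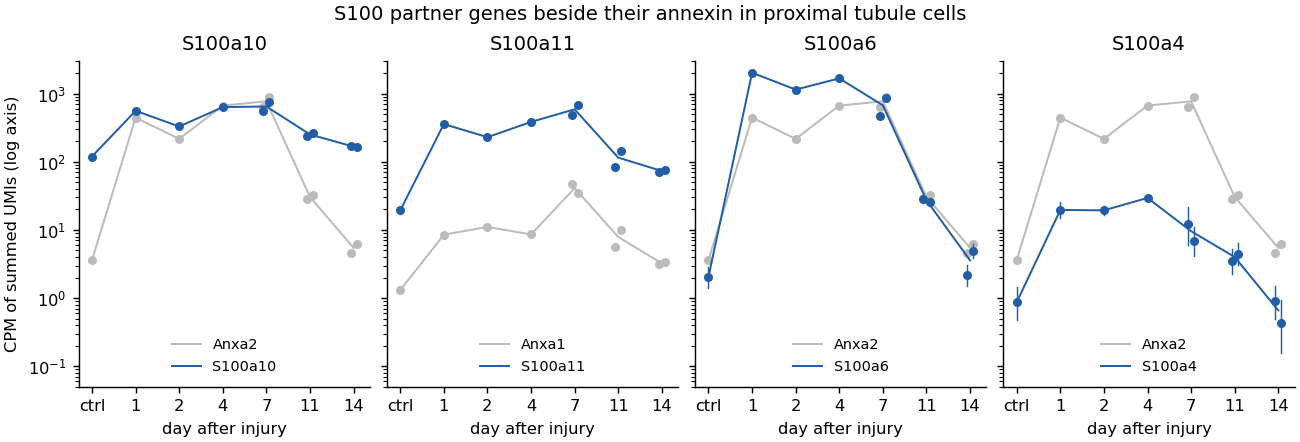
CPM of 4 S100 genes (blue, with exact Poisson 95% intervals) in proximal tubule cells by day, each beside an annexin (grey) for its course over days, on a log axis; points are libraries and lines join day means. S100a10 is at 119 CPM in the control, where Anxa2 is at 3.6; heights of different genes are not comparable.

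Phagocytes, gated on C1q, Csf1r, Cd68 and monocyte markers, numbered 40 in the control and 914 and 1500 on day 7. Anxa2 in them stood at 118 CPM in the control, 538 on day 1, 493 on day 2, 653 on day 4, 426 and 471 on day 7, then 159 and 219.5 on day 11, ending at 197 and 84.1 on day 14. Days 1 to 7 are the high libraries, and the interval of the control (47.3 to 243 CPM, from 7 UMIs) overlaps the levels of days 11 and 14. Anxa1, Anxa3 and Anxa4 had 0 of 59460 UMIs in the control phagocytes. A limit of 3 counts is 50.5 CPM there, and the exact Poisson 95% interval reaches 62.0 CPM. On day 7 Anxa1 was at 249 and 229.7 CPM, Anxa3 at 175 and 180.1 and Anxa4 at 105 and 134. Against 3 counts in the control, the lower day 7 libraries are 4.55-fold, 3.48-fold and 2.07-fold higher. These ratios leave out the counting error of day 7 and would be lower against 62.0 CPM. Anxa5 was present throughout, at 219 CPM in the control, 355 on day 1, 407 on day 2, 512 on day 4, 356 and 398 on day 7, then 507 and 527 on day 11, ending at 468 and 504 on day 14. Its injured libraries all lie above the control value, those of days 11 and 14 included. That value comes from 40 cells with 59460 UMIs in all. Anxa5 did not have an unadjusted edgeR p under 0.05 in phagocytes on day 7 against the control.

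By edgeR's test 2 of 5 annexins (Anxa1 and Anxa3) passed as higher in phagocytes on day 7 than in the control, where 1.37% of 3498 genes passed as higher and 3.46% in either direction; DESeq2 passed none. Their fitted changes, against a control at 0, are no measure of size. Neither call held without day 7 replicate 1 or without day 7 replicate 2, and that of Anxa3 also failed without either of the day 11 libraries. Anxa4 passed without either of the day 14 libraries, and Anxa2 without day 14 replicate 2 (1.78). Between days 7 and 11 none of the 5 passed by edgeR or DESeq2, and Anxa2 and Anxa5 had unadjusted edgeR p under 0.05. Of all 3498 genes 5.69% passed, and 696 had such an unadjusted p. The changes were -0.95 (SE 0.34) for Anxa2 and 0.77 (SE 0.28) for Anxa5. With the replicate number as a block in the edgeR fit, Anxa2 passed as lower, at -1.02. Proximal tubule markers in the phagocytes summed to 1177 CPM in the control, 202 and 109.9 on day 7 and 911 to 1281 on days 11 and 14. Havcr1, which marks injured tubule cells, had UMIs in the phagocytes of days 1 to 7, at 132 CPM on day 1, 15.4 on day 2, 189 on day 4 and 202 and 44.6 on day 7, and 0 UMIs in those of the control and of days 11 and 14. So tubule markers of both kinds moved with the days, and their part in the annexin levels was not tested.

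Phagocytes with a UMI of C1qa, C1qb or C1qc, which resident and mature macrophages make, were set against those with none, a group that holds monocytes. Anxa2 was higher in the C1q-negative cells of every library with at least 20 cells of both on days 1 to 7, with 744 against 123 CPM on day 1, 626 against 283 on day 2, 1031 against 415 on day 4, and 615 against 411 and 1131 against 391 on day 7. Their intervals do not overlap in any of these 5 libraries. Anxa1 was higher in C1q-negative cells on day 2, at 401 against 280.1 CPM, and on day 4, at 424 against 218, and the intervals of days 1 and 7 overlapped. Anxa5 went the other way in day 7 replicate 2, at 296 against 410.1 CPM, and overlapped in the other 4 libraries. Each of these intervals covers counting error in 1 library, and the split was described and not tested. The C1q-negative cells were shallower in all 5 libraries, with medians of 1016 to 2250.5 UMIs against 1278 to 3523. The part of depth in the split was not tested. The C1q-positive cells of day 1 numbered 23, with 32605 UMIs in all.

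**Figure D5:**
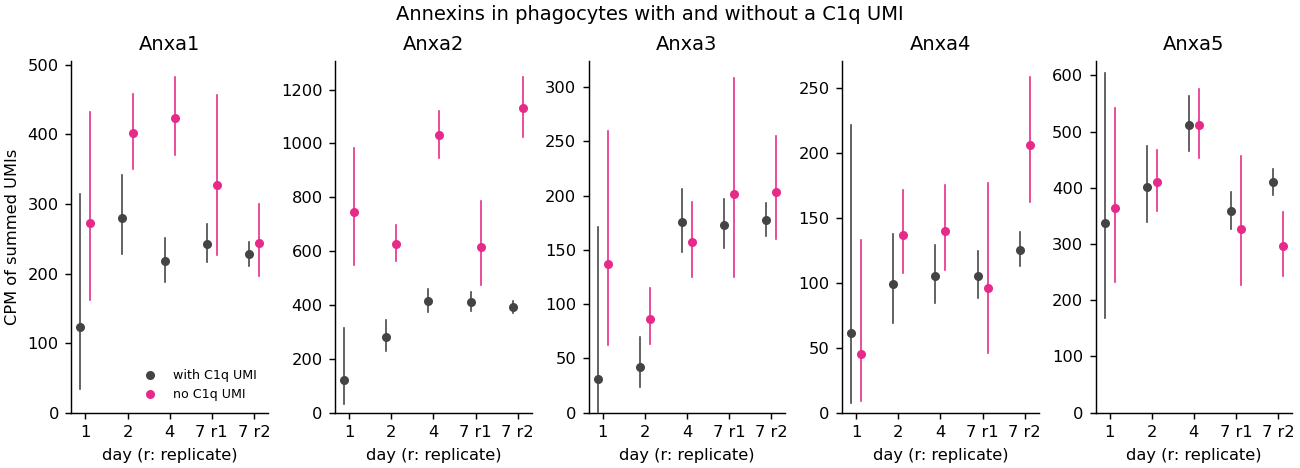
CPM of each annexin in phagocytes with (grey) and without (pink) a C1q UMI in the 5 libraries of days 1 to 7; vertical lines are exact Poisson 95% intervals and axes differ between panels. Anxa2 is apart in all 5 libraries, while the intervals of Anxa5 overlap in 4 of them.

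Endothelial cells, rich in Anxa1, Anxa2, Anxa3 and Anxa5 in the control, followed the days little for Anxa1 and Anxa2. Their Anxa4 was at 28.5 CPM in the control and averaged 52.6 on day 7 and 25.8 on day 11. Anxa2 in endothelial cells stood at 692 CPM in the control, 598 on day 1, 567 on day 2, 789.6 on day 4, 684 and 718 on day 7, then 644 and 961 on day 11, ending at 973 and 805 on day 14. The injured libraries lie on both sides of the control. Anxa1 in endothelial cells stood at 313 CPM in the control, 367 on day 1, 428 on day 2, 307 on day 4, 319 and 394 on day 7, then 438 and 541 on day 11, ending at 329 and 384 on day 14, again with no library far from the rest. Podocytes held 1035 CPM of Anxa2 in the control, 1704 in day 7 replicate 2 and 1410.0 and 1677 on day 11. All 6 injured libraries with at least 20 podocytes lie above the control, and podocytes were not tested. By edgeR's test in endothelial cells, none of the 5 passed on day 7 against the control (none by DESeq2, and none at an unadjusted p under 0.05), where 4.16% of 6560 genes passed and 873 had such an unadjusted p. None passed between days 7 and 11 either (none by DESeq2, and Anxa1 at an unadjusted p under 0.05), where 9.25% of genes passed, 4.42% of all genes as lower, and 1428 of the 6560 had such an unadjusted p. Havcr1 UMIs moved with the days in endothelial cells too, at 0 in the control, 128 and 31.9 CPM on day 7 and 0 on days 11 and 14, and their part was not tested.

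The difference between classes was also fitted, as the change from day 7 to day 11 in 1 class minus that in tubular cells of the same libraries. The tubular cells changed their mix over these days. Proximal tubule cells were 394 of 1078 and 625 of 1612 of them on day 7, and 3509 of 4316 and 3805 of 4502 on day 11. The part of this shift in the differences was not tested. For endothelial against tubular cells 4 of 5 annexins passed, where 6.42% of 12459 genes did and 3.10% in this direction, with differences of 3.61 (SE 0.37) for Anxa3, 3.26 (SE 0.28) for Anxa1, 3.25 (SE 0.26) for Anxa2 and 1.52 (SE 0.29) for Anxa5. For phagocytes against tubular cells the same 4 passed, where 6.16% of 13277 genes did and 2.11% in this direction, with 3.19 (SE 0.47) for Anxa3, 2.61 (SE 0.35) for Anxa1, 1.83 (SE 0.27) for Anxa5 and 1.67 (SE 0.34) for Anxa2. The median over all genes in that second fit was -0.55. Anxa4 did not pass in either, at 0.04 (SE 0.57) and 0.54 (SE 0.42). Without day 11 replicate 2, Anxa1 (1.42) and Anxa2 (1.3) lost their call for phagocytes, in whose 56 cells Anxa1 stood at 406 CPM against 83.3 in day 11 replicate 1.

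Of the 7 other annexins, 5 were measured well enough to be tested in proximal tubule cells. Anxa6, an annexin with more repeats in its core than the others, rose from the control to day 7 by 2.97 (SE 0.44) (adjusted p = 0.000366 by edgeR) and had fallen by day 11, with a change of -1.16 (SE 0.34) (adjusted p = 0.0183). Its level was low, at 0.931 CPM in the control, 8.84 on day 1, 8.07 on day 2, 7.80 on day 4, 12.2 and 13.9 on day 7, then 3.52 and 3.78 on day 11, ending at 2.16 and 2.35 on day 14. Anxa13, an annexin of epithelia, moved the other way, by -1.93 (SE 0.65) to day 7 (adjusted p = 0.0362 by edgeR) and by 3.16 (SE 0.56) to day 11 (adjusted p = 0.00107), from 5.15 CPM in the control to 0 and 3.30 on day 7 and 11 and 15.7 on day 11. Anxa7, Anxa9 and Anxa11 did not pass in these 2 comparisons, with log2 changes of 0.12, 1.1 and -0.55 to day 7. Over all tubular cells Anxa9 rose to day 7, by 2.27 (SE 0.40) (adjusted p = 0.00165 by edgeR), from 1.26 CPM to 10.9 and 10.3. These sums mix segments: its day 7 mean was 27.7 CPM in principal, 8.14 in Havcr1-bearing and 3.68 in proximal tubule cells. It was 0 in thick ascending limb and intercalated cells. Of the tubular cells, 3727 of 5124 were proximal in the control, against 394 of 1078 and 625 of 1612 on day 7. How far this shift in mix made up the Anxa9 change was not tested.

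Genes of the processes in which annexins act were read from lists, given as counts in proximal tubule cells by edgeR's test, beside the 17.5% of all genes that passed as higher and the 18.0% that passed as lower on day 7. Of the plasminogen system, whose receptor Anxa2 and S100a10 form, 4 of 5 tested genes rose and none fell, led by the activator Plat at 6.15 (SE 0.39) (adjusted p = 1.87e-06), the urokinase receptor Plaur at 5.54 (SE 0.61) (adjusted p = 4.31e-05) and urokinase itself, Plau, at 0.99 (SE 0.29) (adjusted p = 0.0209 by edgeR). Plat stood at 1.3 CPM in the control, 136 and 197 on day 7 and 3.06 and 3.13 on day 14. The control held 2 UMIs of Plaur, so the size of its change is loose. The median log2 change of these 5 genes was 0.99, against 0.04 over all genes. By day 11, 3 of the 5 had fallen, with changes of -3.29 (SE 0.25) for Plat, -2.98 (SE 0.41) for Plaur and -1.13 (SE 0.23) for Plau (edgeR adjusted p of 4.27e-06, 0.000205 and 0.00289), where 18.2% of all genes passed as lower.

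Of the membrane repair genes, 4 of 13 tested rose and 2 fell on day 7 (median 0.43). The ferlins Myof, at 5.01 (SE 0.33) (adjusted p = 2.11e-06), and Dysf, at 4.09 (SE 0.69) (adjusted p = 0.000879 by edgeR), led those that rose, with the large scaffold Ahnak at 2.81 (SE 0.25) (adjusted p = 1.32e-05). The genes that fell, Vps4a and Chmp3, belong to the ESCRT machinery, which sheds damaged membrane, and changed by -0.73 (SE 0.21) (adjusted p = 0.0199 by edgeR) and -0.73 (SE 0.20) (adjusted p = 0.0146). Of the genes that expose or recognise phosphatidylserine, the lipid that Anxa5 binds, 6 of 12 tested rose and 1 fell (median 2.99). Havcr1 itself, the receptor tyrosine kinase Axl and Pros1, a bridging ligand of that kinase family, led those that rose, at 8.68 (SE 0.62), 4.88 (SE 0.55) and 4.48 (SE 0.51) (edgeR adjusted p of 3.08e-06, 5.04e-05 and 5.59e-05), and Mertk, a kinase of the same family, fell, at -1.16 (SE 0.24) (adjusted p = 0.00321).

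Of the Anxa1 receptors and its phospholipase, 3 of 5 genes were measured well enough in proximal tubule cells and none passed by edgeR on day 7 against the control. Over all tubular cells 2 of the 5 were tested, and Pla2g4a, the cytosolic phospholipase A2, rose by 1.05 (SE 0.23) (adjusted p = 0.00569 by edgeR), where 16.1% of all genes passed as higher. The other, the ion channel and kinase Trpm7, fell, with a change of -0.99 (SE 0.30) (adjusted p = 0.0264 by edgeR). Pla2g4a fell from day 7 to day 11, with a change of -2.26 (SE 0.21) (adjusted p = 2.84e-05). Within injured libraries Pla2g4a was lower in Havcr1-positive tubular cells, with a change of -2.65 (SE 0.34) (adjusted p = 0.00107 by edgeR). Those tubular cells mix segments, and within proximal tubule cells alone Pla2g4a had too few counts to be tested between states. Over the same mixed tubular cells Plat, Plaur and Plau were higher in Havcr1-positive cells, by 3.61 (SE 0.27), 1.51 (SE 0.41) and 1.13 (SE 0.18) (edgeR adjusted p of 0.000167, 0.0304 and 0.00294). In that comparison 4 of 4 tested plasminogen genes passed as higher, against 10.7% of all genes.

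The genes with the course most like each annexin over classes and libraries were found by Pearson's r of log2(CPM + 10) over 66 sums of a class in a library with at least 50 cells, from 11 classes, among 6897 genes. The sums share libraries and depths, and r is a description. Anxa1 was most like Tpm4 (r = 0.874), a tropomyosin of the actin cytoskeleton, Wasf2 (0.874), an activator of actin branching, and Dhrs7 (0.866), Tmed10 (0.845) and Timp2 (0.842). Anxa2 was most like Ywhah (0.852), the non-muscle myosin Myh9 (0.846), the actin-binding Tmsb10 (0.844), Tpm4 (0.840) and Dhrs7 (0.831). Anxa3 was most like Tpm4 (0.821), Sept2 (0.810), Anxa2 (0.804), Tmsb10 (0.803) and Slc25a24 (0.80), so that Tpm4 stands in the first 5 of all 3. Anxa4 was most like Itm2b (0.782), the proton pump genes Atp6ap2 (0.748) and Atp6v0e (0.726), and Rala (0.745) and Casz1 (0.722). Anxa5 had the weakest likeness, with Psme1 (0.728), Litaf (0.715), Cst3 (0.690), Eif4e3 (0.668) and Hsd3b7 (0.667). Among the annexins, Anxa1 and Anxa2 had r = 0.816 and Anxa1 and Anxa3 0.742, while Anxa4 had 0.108 to 0.146 with Anxa1, Anxa2 and Anxa3, and 0.420 with Anxa5.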

How the data were processed

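The authors deposited 1 table of UMI counts per gene and cell barcode for each of the 10 libraries; the values are whole numbers and were read as raw counts. Bowtie2 2.2.7 and the genome build mm10 are named in the submitters' processing notes, without their settings. A barcode was kept as a cell from 500 UMIs and 500 genes up, with no more than 50% of its UMIs mitochondrial (52797 cells, 173806985 UMIs). Classes came from raw UMIs of 92 marker genes, 91 of them in the tables. No doublet caller was run, and the gates leave out barcodes that carry markers of 2 classes in similar amounts. Of kept cells 18.5% fell in no class. That share was 9.81% in the control, 25.4% to 45.3% on days 1 to 7 and 6.60% to 9.56% on days 11 and 14.

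Counts were summed per library and class with at least 20 cells and tested in edgeR 4.0.16 (R 4.3.3) by the quasi-likelihood F test, with TMM scaling, filterByExpr and Benjamini-Hochberg adjustment over all genes tested. Standard errors are the log2 change divided by the square root of F. The 7 groups came from the labels. DESeq2 1.42.0, other filters, gates and libraries left out were alternatives. The fits were tested on simulated data. Tables were read with pandas 2.3.3 and numpy 2.4.6, intervals come from scipy 1.17.1 and gene models from GENCODE M21. Exact Poisson and binomial intervals are at 95% and, like the limit of 3 counts for a gene at 0, cover counting error only.

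The genes named were the 5 annexins, the S100 partners and, from each list, the 3 genes called with the largest change in each direction; likeness used genes with a mean of at least 20 CPM over the sums. The annexins and all lists were chosen with earlier results of these data known, and those results were in view when the tests were set. One gene of the plasminogen list is not reported here and is left out of its counts. The other annexins and a few genes given with their levels were picked after their values were seen. The 2 libraries of a day differed by more than sampling noise (chi-square per degree of freedom of 11.6, 25.8 and 15.2 in tubular cells) and were kept as separate samples.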

Additional observations from a re-analysis of the deposited data

Results flagged for a closer look

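The change of 4 annexins from day 7 to day 11 differed between cell classes in the fit of that difference, which supports nothing further, since the annexins were chosen with their levels by day and class known. In phagocytes it lay above that in tubular cells by 2.61 on the log2 scale for Anxa1, 1.67 for Anxa2, 3.19 for Anxa3 and 1.83 for Anxa5. In endothelial cells it lay above by 3.26 for Anxa1, 3.25 for Anxa2, 3.61 for Anxa3 and 1.52 for Anxa5. Both sets share the tubular sums, whose mix of segments differed between days 7 and 11.

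The cells that the gates put in no class were outside the comparisons and held more annexin RNA on day 7 than in the control. Anxa2 averaged 918 CPM over the 2 day 7 libraries against 143 in the control, Anxa3 207 against 17.6, Anxa5 431 against 224 and Anxa1 167 against 87.1. These cells numbered 602 in the control and 1454 and 1468 on day 7. Anxa4 in them stood at 98.5 CPM in the control and at 122 and 197 on day 7. Groups of 4 or more libraries, which a check for outlying samples needs, do not occur here.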

How the results depend on the processing

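Of the values of single annexins under other settings, 839 kept direction and side of the threshold, 8 passed newly, 20 no longer passed and 1 changed sign. That one is Anxa4 between Havcr1 states, at 1.04 with proximal tubule cells only. In phagocytes on day 7 against the control, 2 annexins passed, but 0 by DESeq2's Wald test, 4 with only the 2 groups in the fit, and 0 to 4 with 1 library left out. In phagocytes between days 7 and 11 none passed, but 1 (Anxa2, -1.02) did with the replicate number as a block. At a gate purity of 9/10, 1 passed in tubular and 2 in proximal tubule cells on day 14 against the control, and the day 7 mean of Anxa2 in proximal tubule cells was 479 CPM. With 1 Havcr1 UMI enough to be positive, 2 passed between states, and with cells of 1000 to 3000 UMIs 4 passed. With 1 library left out, 2 to 4 passed in the phagocyte difference (2 without day 11 replicate 2) and 4 to 5 in tubular cells from day 7 to day 11. At purity 9/10 the calls of Anxa2 in the phagocyte difference (1.73) and of Anxa5 in the endothelial one (1.74) were lost. The cause of these changes was not tested.

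Counts over all genes moved more. Tubular cells from day 7 to day 11 gave 6838 genes and 4292 without day 11 replicate 2. On day 14 against the control they gave 1345, 892 by DESeq2, 2399 without a filter, 3062 with 2 groups and 307 (without day 14 replicate 2) to 2280 (without day 7 replicate 1). Proximal tubule cells gave 5256 on day 7 (3176 at purity 9/10), 5373 from day 7 to day 11 (3330 at that purity, 3492 without day 11 replicate 2) and 1467 on day 14 (909 by DESeq2, 2753 with 2 groups, 420 to 2114 with 1 library left out). Phagocytes gave 121 on day 7 (234 with 2 groups, 52 to 164 with 1 library left out) and 199 from day 7 to day 11 (121 at purity 9/10, 353 with 2 groups, 61 to 290). Endothelial cells gave 273 on day 7 (24 by DESeq2, 40 at purity 9/10, 97 to 298) and 607 from day 7 to day 11 (108, 99 and 203 to 639). The Havcr1 states gave 3131 (1815 at purity 9/10, 896 with cells of 1000 to 3000 UMIs, 1897 without day 7 replicate 2). The differences between classes gave 818 for phagocytes (329, 391 and 358 to 983) and 800 for endothelial cells (332, 84 and 354 to 742), in the order of DESeq2, purity 9/10 and 1 library left out.

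The labels number the libraries of days 7, 11 and 14 as 1 and 2. Deviations of same-numbered libraries in tubular cells correlated at 0.34 between days 7 and 11. They correlated at -0.03 between days 7 and 14 and at -0.10 between days 11 and 14. These values do not settle whether the numbers pair the libraries. With the replicate block 5 annexins passed from day 7 to day 11 in tubular and 5 in proximal tubule cells, and 0 in endothelial cells. No block is possible against the single control. Phagocytes on day 7 against the control at purity 9/10 were not run, since the control then has under 20 cells. The phagocyte sum of the control was shallow, at 59460 UMIs, and the control is a single library.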

Other observations

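Stromal and lymphoid classes were present in few libraries and entered no comparison. Fibroblasts held 392 CPM of Anxa1 on day 2, 623 on day 4, 553 in day 7 replicate 2 and 822 in day 11 replicate 1, from 22 to 53 cells. Their Anxa2 stood between 723 and 995 CPM in the same libraries, and the control had fewer than 20 fibroblasts. Mural cells, the contractile cells of vessels, held 217 CPM of Anxa1 in the control, 998 on day 2, 546 in day 7 replicate 2, 447 in day 11 replicate 1 and 356 in day 14 replicate 1. T and NK cells held 689.8 CPM of Anxa2 on day 2, 1077 on day 4 and 391 and 385 on day 7.

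By edgeR's test of the difference, the change from day 7 to day 11 passed as higher than that in tubular cells for 1 of 4 S100 partners (S100a6) in phagocytes, where 2.11% of all genes passed as higher, and for 3 of 4 (S100a6, S100a10 and S100a11) in endothelial cells, where 3.10% did. The change of S100a6 in phagocytes lay above that in tubular cells by 2.64 (SE 0.36) (adjusted p = 3.85e-11 by edgeR), and in endothelial cells by 2.78 (SE 0.29) (adjusted p = 4.13e-19). In endothelial cells S100a4 and S100a6 fell over these days, with changes of -1.39 (SE 0.36) (adjusted p = 0.00553 by edgeR) and -1.26 (SE 0.28) (adjusted p = 0.00109), where 4.42% of all genes passed as lower and none of the 5 annexins passed. Havcr1, which marks injured tubule cells, went from 128 and 31.9 CPM to 0 UMIs in these endothelial cells over the same days, and its part was not tested. S100a10 in endothelial cells stood at 730.3 CPM in the control, 561 on day 1, 607 on day 2, 741 on day 4, 620.4 and 646 on day 7, then 697 and 768 on day 11, ending at 619.7 and 877 on day 14.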
